A study of Homo sapiens with 48 samples.

Results

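The genes described here encode laminin-332 chains and epithelial integrins, and they were chosen by name: LAMA3, LAMB3, ITGA6, ITGB4, ITGA2, ITGA3, ITGB6 and ITGAV, 8 of 20033 protein-coding genes. Every ChIP-seq peak that overlapped 1 of these gene bodies or the 50 kb on either side of it was counted as a region of that gene, on hg38 with GENCODE 44. The data came from L3.6pl, an established human pancreatic ductal adenocarcinoma cell line. RELA, RELB and H3K27ac were each immunoprecipitated after vehicle, after TNFα for 30 min or 6 h, and after TWEAK for 30 min or 6 h, and FOSL1 was immunoprecipitated in vehicle alone. This gave 16 groups of 3 samples, 48 in all, and 1 deposited peak list per group. All groups were of the same cell line, no genotype differed, and nothing in the labels says that the 3 samples of a group were separate cultures. Because only 1 list was deposited per group, there was no spread between replicates to test against, and every comparison between treatments is one between 2 lists. The read depth is unknown. The labels give no duration for the vehicle treatment, so the same vehicle list served for 30 min and for 6 h. The RELA and RELB lists held from 2414 regions (RELB, 30 min of TWEAK) to 11266 (RELA, 30 min of TNFα), so a region missing from a short list may have fallen below that list's threshold. RELA used protein G beads and the other antibodies protein A beads. The peak names of the RELA list at 30 min of TNFα carry the mark of a single replicate beside the word for merged samples, so whether that list holds all 3 samples is not settled.

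Laminin-332 is a basement membrane protein that epithelial cells secrete as a trimer. LAMA3 encodes its α3 chain and LAMB3 its β3 chain, and the remaining chain was not analysed here. Integrin α6β4, encoded by ITGA6 and ITGB4, binds laminin-332 and anchors epithelial cells through hemidesmosomes, while integrin α3β1, whose α chain is encoded by ITGA3, binds the same laminin in adhering and migrating cells. ITGA2 encodes the α chain of α2β1, best known as a collagen receptor. ITGAV and ITGB6 encode αvβ6, whose best known ligands are fibronectin and latent TGFβ rather than laminin. TNFα activates the canonical NF-κB pathway and RELA, TWEAK activates mainly the noncanonical pathway and RELB, FOSL1 is a subunit of the AP-1 transcription factor, and H3K27ac marks active promoters and enhancers.

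After 30 min of TNFα, all 8 genes had at least 1 RELA region that was missing from the RELA vehicle list, against 46.9% of all protein-coding genes. With a fold enrichment of at least 5 required of every region, 5 of the 8 did, and no share of all genes was available at that cutoff. After 6 h of TWEAK, 4 of the 8 had a RELB region missing from the RELB vehicle list, against 11.8% of all genes. The 4 were LAMB3, ITGA2, ITGA3 and ITGAV. Regions of either factor joined into 30 sites. Of these, 22 were called in RELA lists only, 2 in RELB lists only and 6 in both. The same split over the whole series was not available. The site inside ITGB6, 1 of the 6, lay in sequence with a median of 4194 copies in hg38. The strongest of the 30 were the sites 45.5 kb and 17.1 kb upstream of ITGAV. The most numerous lay in the LAMB3 window, with 8 RELA regions at 30 min of TNFα. At 22 of the 30 sites the nearest coding start was that of the gene itself, and at 8, some of them in the LAMB3 window, that of another gene.

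The sequences below are those of the sites on which the results turn: sites called by both factors except the one inside ITGB6, the strongest RELB site without RELA, the single LAMA3 site, and examples of RELA-only sites that hold the NF-κB or AP-1 consensus. Each is read 5′ to 3′ on the plus strand of hg38 and covers 151 bases around the highest summit, except at LAMB3 1.2 kb downstream. That site lies in an untranslated exon of a shorter LAMB3 transcript, so only the 29 bases that span its matches are shown. Capitals mark matches to the NF-κB consensus or to the AP-1 consensus, which was searched as TGACTCA and TGAGTCA. Both strands were searched, and a match describes letters only.
LAMA3, 183.3 kb downstream of the gene start, chr18:23872657-23872807: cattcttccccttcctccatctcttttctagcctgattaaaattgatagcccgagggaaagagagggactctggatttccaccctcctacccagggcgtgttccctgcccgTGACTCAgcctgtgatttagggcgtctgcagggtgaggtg
LAMB3, 44.9 kb downstream, chr1:209607462-209607612: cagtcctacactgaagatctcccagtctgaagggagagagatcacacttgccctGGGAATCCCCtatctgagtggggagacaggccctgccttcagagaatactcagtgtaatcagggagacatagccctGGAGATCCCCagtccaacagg
LAMB3, 1.2 kb downstream, chr1:209651178-209651206: TGACTCAcagggtgccctgGGAAAATCCC
ITGA6, 14.9 kb downstream, chr2:172442216-172442366: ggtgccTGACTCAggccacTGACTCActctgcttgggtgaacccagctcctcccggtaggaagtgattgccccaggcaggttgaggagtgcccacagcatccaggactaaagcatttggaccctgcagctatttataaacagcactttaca
ITGA2, 42.7 kb downstream, chr5:53031964-53032114: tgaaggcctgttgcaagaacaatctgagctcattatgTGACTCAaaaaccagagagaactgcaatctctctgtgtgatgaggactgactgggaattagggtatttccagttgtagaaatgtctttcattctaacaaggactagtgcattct
ITGA3, 10.6 kb upstream, chr17:50045336-50045486: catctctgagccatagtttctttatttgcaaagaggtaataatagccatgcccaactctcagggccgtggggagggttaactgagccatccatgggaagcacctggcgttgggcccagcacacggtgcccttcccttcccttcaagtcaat
ITGB6, 9.5 kb upstream, chr2:160209696-160209846: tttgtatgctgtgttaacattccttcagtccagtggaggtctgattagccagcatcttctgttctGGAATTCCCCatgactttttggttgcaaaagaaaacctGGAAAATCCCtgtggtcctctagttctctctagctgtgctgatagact
ITGB6, 33.0 kb upstream, chr2:160233209-160233359: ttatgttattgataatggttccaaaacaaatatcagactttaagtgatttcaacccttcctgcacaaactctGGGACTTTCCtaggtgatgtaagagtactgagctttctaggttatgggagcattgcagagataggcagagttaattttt
ITGAV, 45.5 kb upstream, chr2:186544469-186544619: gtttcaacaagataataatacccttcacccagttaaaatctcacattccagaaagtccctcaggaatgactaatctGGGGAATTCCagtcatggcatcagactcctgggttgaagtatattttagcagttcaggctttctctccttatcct
ITGAV, 17.1 kb upstream, chr2:186572866-186573016: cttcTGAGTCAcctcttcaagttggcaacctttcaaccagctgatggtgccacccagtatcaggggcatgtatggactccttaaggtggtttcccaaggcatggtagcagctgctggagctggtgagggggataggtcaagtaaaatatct

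Over all 8 genes the windows spanned 1.55 Mb. Within them RELA had 3 regions after vehicle, 27 after TNFα for 30 min, 11 after TNFα for 6 h, 4 after TWEAK for 30 min and 3 after TWEAK for 6 h. For RELB the numbers, in the same order, were 2, 1, 2, 1 and 8. In these windows RELA was therefore most often called at 30 min of TNFα and RELB at 6 h of TWEAK. The whole RELA lists, in the same order, held 3004, 11266, 7294, 2791 and 3677 regions. The whole RELB lists held 4101, 2835, 3542, 2414 and 4052. RELA at 30 min of TNFα was thus also the longest RELA list, while the longest RELB list was that of vehicle. Vehicle lacked 25 of the 27 RELA regions at 30 min of TNFα, a share of 92.6% (exact 95% interval 75.7 to 99.1%). Over all RELA regions of that list the share was 80.7%. Such intervals cover counting error alone and treat neighbouring regions as separate units, although regions of 1 gene share a locus. At 6 h of TNFα, 8 of the 11 RELA regions were missing in vehicle, against 67.1% of that list. Among the 8 RELB regions found after TWEAK for 6 h, 6 were missing in vehicle, against 45.1%.

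A RELA region missing in vehicle lay within 50 kb of 46.9% of all protein-coding genes at 30 min of TNFα, beside 8 of 8 genes here. At 6 h of TNFα it was 5 of 8 (LAMB3, ITGB4, ITGA2, ITGA3 and ITGB6) against 24.4% of all genes. At 30 min of TWEAK it was ITGB4 alone, against 4.22%, and at 6 h of TWEAK it was no gene of the 8, against 2.17%. For RELB, 6 h of TWEAK gave 4 of 8 genes against 11.8%, and 6 h of TNFα gave ITGAV alone against 2.15%. At 30 min of TNFα or TWEAK, RELB gave 0 of 8, against 0.454% and 0.409%. Windows of these genes were long. They ranged from 134.5 kb at ITGA3 to 366.8 kb at LAMA3, beside a median of 127 kb over all protein-coding genes, and longer windows hold more regions. Per Mb, RELA at 30 min of TNFα gave 17.4 regions in the windows and 3.65 over the genome, FOSL1 gave 56.7 and 19.1, and H3K27ac in vehicle gave 63.2 and 19.4. All 3 were denser here than over the genome, which also counts the long stretches without genes.

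**Figure D1:**
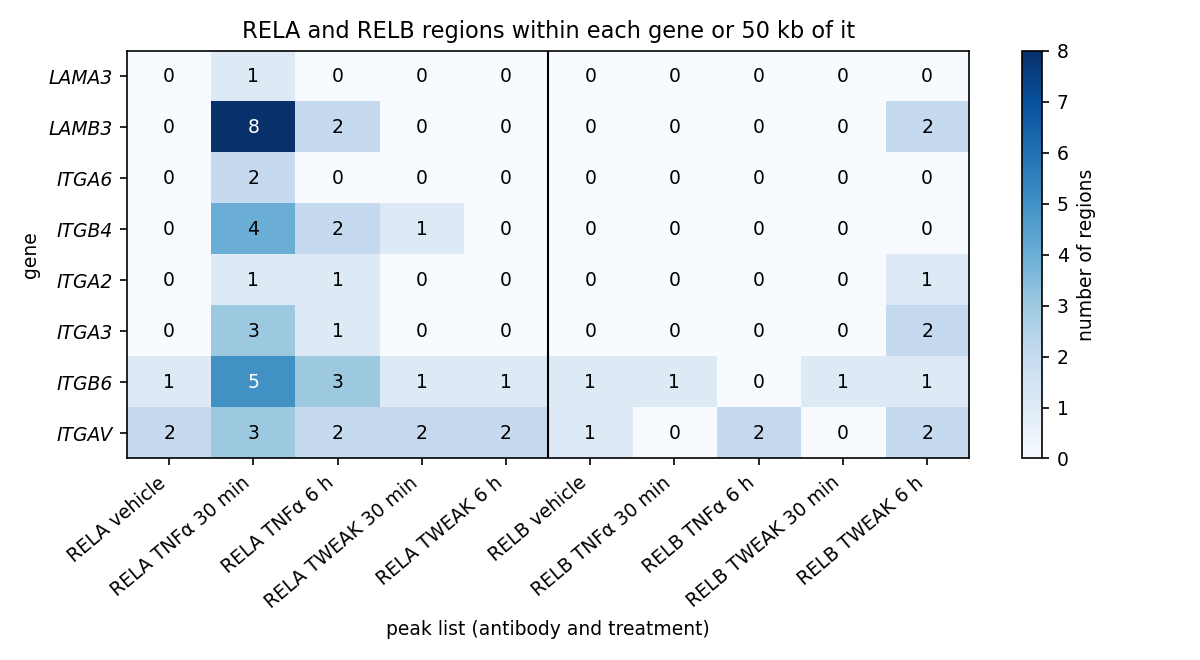
Number of RELA and RELB regions per gene (rows, gene body with 50 kb on either side) in each of the 10 lists (columns), with the count printed in each cell and shaded. The column of RELA at 30 min of TNFα is the only one without a 0, and LAMB3 has the highest count in it, 8.

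The 2 laminin genes differed widely in the number of regions. LAMA3, the longest of the 8 genes, had 1 RELA region at 30 min of TNFα and no other RELA or RELB region. Its deposited fold enrichment, the authors' ratio of ChIP over input, was 5.18, rank 7433 of 11266. The summit lay in intron 38 of LAMA3 at position 23872732 of chromosome 18. That is 183.3 kb downstream of the gene start but only 288 bp from the annotated start of a shorter LAMA3 transcript that begins inside the gene. A FOSL1 region with a fold enrichment of 11.0 covered the site in vehicle, within the strongest 8.64% of FOSL1 regions, and TGACTCA lay 39 bp after the RELA summit. The H3K27ac fold enrichment within 500 bp of the summit was 3.19 in vehicle, 3.56 and 2.79 at 30 min and 6 h of TNFα, and 3.46 and 3.26 at 30 min and 6 h of TWEAK. H3K27ac was thus called beside the LAMA3 site in every list. The annotated start of the full-length gene, in contrast, had values of 4.21 in vehicle, 3.67 after TNFα for 6 h, and 2.82 and 4.09 after TWEAK for 30 min and 6 h, but no H3K27ac peak after TNFα for 30 min.

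LAMB3, whose window is 137.6 kb, had 8 RELA regions at 30 min of TNFα, a number reached by 39 genes, 0.195% of all protein-coding genes. At 6 h of TNFα 2 of the 8 were called, and 2 carried RELB at 6 h of TWEAK. The site in intron 1, with its summit at position 209651211 of chromosome 1, lay 1.2 kb downstream of the gene start and 123 bp from the start of a shorter LAMB3 transcript. RELA gave a fold enrichment of 6.81 there at 30 min of TNFα and RELB 7.02 at 6 h of TWEAK, with summits 6 bp apart. The site was called in neither factor's vehicle list, nor in the RELA list at 6 h of TNFα. It overlapped FOSL1 (4.84) and held TGACTCA and the NF-κB match GGAAAATCCC.

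A weaker RELA region (3.81) lay 33 bp upstream of the LAMB3 start at 30 min of TNFα, with the NF-κB matches GGGGGTCTCC and GGGGTCTCCC, which overlap, and GGAGACTCCC. It shared a single broad H3K27ac peak with the intron 1 site, whose fold enrichment was 2.80 in vehicle, 2.87 and 2.15 at 30 min and 6 h of TNFα, and 3.01 and 2.56 at 30 min and 6 h of TWEAK. Acetylation at the LAMB3 start was therefore called before and after every treatment.

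The site 44.9 kb downstream of the LAMB3 start lay in intron 6 of the neighbouring gene CAMK1G. RELA gave 5.00 and 7.06 there at 30 min and 6 h of TNFα, and RELB gave 5.05 at 6 h of TWEAK. It had 2 NF-κB matches, GGGAATCCCC and GGAGATCCCC, and TGAGTCA 79 bp after the summit, just past the end of the printed bases. No FOSL1 region overlapped it, and H3K27ac was called in 1 of the 5 lists, at 6 h of TNFα (2.36). The 5 other LAMB3 regions were called for RELA only. The one 75.5 kb downstream gave 8.67 and 6.31 at 30 min and 6 h of TNFα and lay 6744 bp from the start of CAMK1G, with FOSL1 (3.86) but no H3K27ac in any list.

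The other 4 appeared at 30 min of TNFα alone, with fold enrichments of 4.50 at 3.1 kb, 8.28 at 7.7 kb, 5.39 at 20.9 kb and 5.77 at 39.4 kb upstream. Of these, the site 20.9 kb upstream lay 2048 bp from the start of G0S2 and the one 39.4 kb upstream 5689 bp from the start of HSD11B1, so the nearest coding start was not that of LAMB3. The site 39.4 kb upstream was the only RELA region at 30 min of TNFα in the windows that had no H3K27ac in vehicle and had it at 30 min of TNFα. H3K27ac fold enrichment was 3.21 and 3.25 at 30 min and 6 h of TNFα and 4.60 at 6 h of TWEAK, with no peak in vehicle or at 30 min of TWEAK. The lists in which LAMB3 had any region (RELA at 30 min and 6 h of TNFα, RELB at 6 h of TWEAK) were the same as for 955 protein-coding genes, 4.77% of all.

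**Figure D2:**
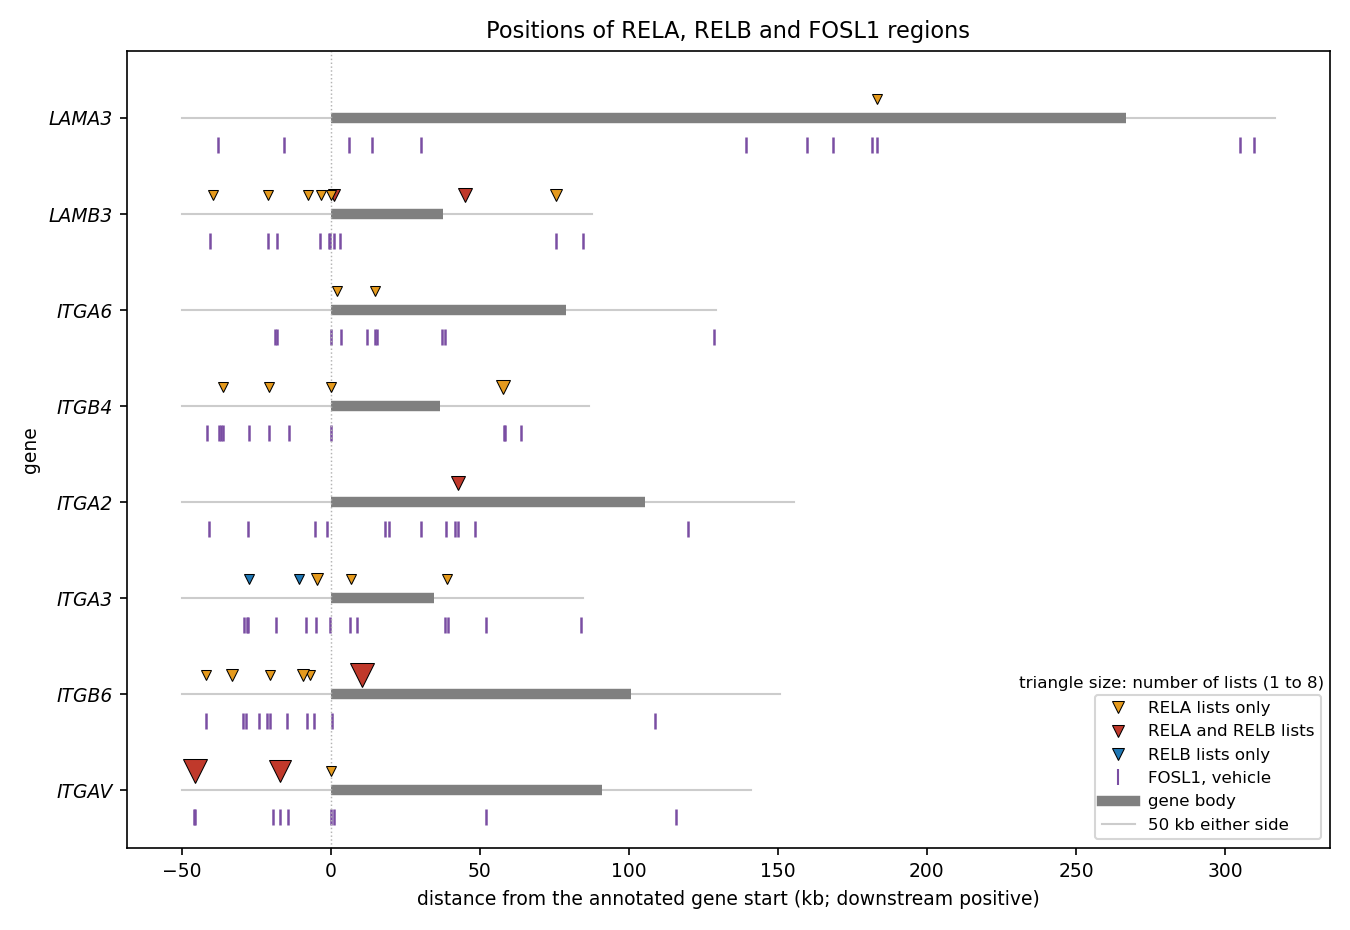
Summits of RELA and RELB sites (triangles, coloured by factor and sized by the number of lists that call the site) and of FOSL1 regions in vehicle (purple ticks), by distance in kb from the annotated gene start, with grey bars for gene bodies. LAMB3 has 8 sites and LAMA3 has 1, although both genes hold at least 10 FOSL1 regions, and the largest triangles are the sites upstream of ITGAV and the site inside ITGB6.

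The genes of the hemidesmosome integrin, ITGA6 and ITGB4, had RELA regions but no RELB region in any list, like LAMA3. Having none was common, since 11.8% of all protein-coding genes had a RELB region missing in vehicle at 6 h of TWEAK. Other hemidesmosome and related genes did have RELB regions in that list: 3 at PLEC, 2 at DST, 1 at COL17A1 and 1 at CD151, though COL7A1 had none. ITGA6 had 2 RELA regions, both in intron 1 and both at 30 min of TNFα alone. The fold enrichment was 4.69 at 2.2 kb and 3.74 at 14.9 kb downstream of the gene start. The latter was among the weakest RELA regions of the windows, yet FOSL1 gave 10.4 there and TGACTCA occurred at 2 positions. H3K27ac was called at both ITGA6 sites in all 5 lists.

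ITGB4 had 4 sites, each with FOSL1 and with H3K27ac in all 5 lists. The RELA region over the ITGB4 start had its summit 18 bp downstream of it and a fold enrichment of 4.29 at 30 min of TNFα. At 36.2 kb and 20.8 kb upstream, in introns 3 and 5 of SAP30BP, RELA gave 4.61 and 4.99 at 30 min of TNFα. These 3 were called in no other RELA or RELB list. The strongest of the 4 lay 57.8 kb downstream, in coding exon 2 of H3-3B and 5695 bp from the start of UNK. RELA gave 10.6 and 7.19 there at 30 min and 6 h of TNFα, with a further peak (3.64) beside the main one at 6 h, and TWEAK for 30 min gave 4.35. In the 200 bp around that summit 13.0% of the 32-base words occurred elsewhere in hg38. Whether these shared words bear on the value was not tested.

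The genes of the α2 and α3 chains both had RELB at 6 h of TWEAK, at ITGA2 on a RELA site and at ITGA3 away from RELA. ITGA2 had 1 site, in intron 2, 42.7 kb downstream of the start. RELA gave 8.92 and 12.6 after TNFα for 30 min and 6 h, and RELB gave 9.83 at 6 h of TWEAK. The RELA summit at 6 h lay within 16 bp of each of the other summits. The region ranked 2312 of 11266 and then 472 of 7294 among RELA regions, and 552 of 4052 among RELB regions. It was in neither vehicle list and in no other RELA or RELB list. FOSL1 was weak at the site (3.64, within the strongest 85.6% of FOSL1 regions) and TGACTCA lay 35 bp before the summit. The H3K27ac fold enrichment was 2.26 in vehicle, 2.30 and 2.18 at 30 min and 6 h of TNFα, and 2.18 and 2.27 at 30 min and 6 h of TWEAK.

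ITGA3 had the 2 RELB-only sites, both at 6 h of TWEAK. The stronger, 10.6 kb upstream, had a fold enrichment of 12.0 (rank 300 of 4052), with no FOSL1, no H3K27ac in any list and no NF-κB or AP-1 match. The other, 27.5 kb upstream, had 5.92, with FOSL1 (7.47) and with H3K27ac in all 5 lists. The other 3 ITGA3 sites carried RELA only. RELA gave 4.23 and 3.77 at 30 min and 6 h of TNFα at 4.6 kb upstream, where FOSL1 gave 10.5 and GGGAAGTCCC lay 8 bp before the summit. At 30 min of TNFα alone it gave 4.35 at 6.7 kb downstream, in intron 1, and 3.78 at 39.1 kb downstream, 362 bp from the start of PDK2. No ITGA3 site was called for both factors.

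The genes of αvβ6 had the sites called in the most lists. ITGAV, the αv chain, had its strongest site 45.5 kb upstream, with its summit at position 186544544 of chromosome 2. RELA gave 8.49 in vehicle, 23.0 and 20.0 at 30 min and 6 h of TNFα, and 8.98 and 8.58 at 30 min and 6 h of TWEAK. RELB gave 9.14 in vehicle, 11.3 at 6 h of TNFα and 21.1 at 6 h of TWEAK, and had no peak at 30 min of either ligand. Its rank was 34 of 11266 in the RELA list at 30 min of TNFα and 29 of 4052 in the RELB list at 6 h of TWEAK. The site was thus called in vehicle by both factors and stood among the strongest of the RELA list after TNFα and of the RELB list after TWEAK. FOSL1 gave 11.6 with its summit 24 bp away, and the NF-κB match GGGGAATTCC lay 5 bp after the RELA summit.

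At the second ITGAV site, 17.1 kb upstream, RELA gave 10.7 in vehicle, 22.3 and 21.7 at 30 min and 6 h of TNFα, and 14.0 and 8.14 at 30 min and 6 h of TWEAK. RELB gave 6.05 at 6 h of TNFα and 11.7 at 6 h of TWEAK and had no peak in vehicle. As at the other site, the RELA values after TNFα were the highest RELA values and the RELB value after 6 h of TWEAK the highest RELB value. FOSL1 gave 9.97, TGAGTCA lay 68 bp before the summit and no NF-κB match was found in the 200 bp window. Both sites had H3K27ac in all 5 lists, from 3.2 to 3.7 at 45.5 kb and from 2.0 to 2.6 at 17.1 kb upstream, with the highest values of both at 30 min of TNFα. At the ITGAV start RELA gave 4.13, at 30 min of TNFα only.

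ITGB6, the β6 chain, had 6 sites. The one in intron 4, 10.7 kb downstream of the start, was called in 8 of the 10 RELA and RELB lists. RELA gave 7.02 in vehicle, 8.98 after TNFα for 6 h, and 8.10 and 10.7 after TWEAK for 30 min and 6 h, and had no peak at 30 min of TNFα. RELB gave 8.45 in vehicle, 7.43 at 30 min of TNFα, 7.85 at 30 min and 6.62 at 6 h of TWEAK. Unlike the ITGAV sites, it was missing from the list in which RELA was called most often, and it had no FOSL1, no H3K27ac and no motif match. All 169 of the 32-base words in the 200 bp around its summit occurred elsewhere in hg38, with a median of 4194 copies, so reads of this site cannot be placed uniquely by sequence of that length. At 27 of the 30 sites no word occurred elsewhere. Without the ITGB6 intron 4 site, the windows held 2, 27, 10, 3 and 2 RELA regions and 1, 0, 2, 0 and 7 RELB regions, in the order vehicle, TNFα for 30 min and 6 h, and TWEAK for 30 min and 6 h.

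The other 5 ITGB6 sites lay upstream and carried RELA after TNFα only. The strongest, 20.5 kb upstream, gave 9.42 at 30 min and was missing at 6 h. Those 9.5 kb and 33.0 kb upstream gave 8.44 and 6.10 at 30 min and remained at 6 h with 6.65 and 3.81. Both held NF-κB matches (GGAATTCCCC and GGAAAATCCC at the former, GGGACTTTCC 1 bp from the summit of the latter), and neither overlapped FOSL1 or had H3K27ac in any list. At 7.1 kb upstream RELA gave 6.86 at 30 min. At 41.7 kb upstream it gave 5.00 at 30 min, over the strongest FOSL1 region of all 8 windows (13.2) and TGACTCA.

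**Figure D3:**
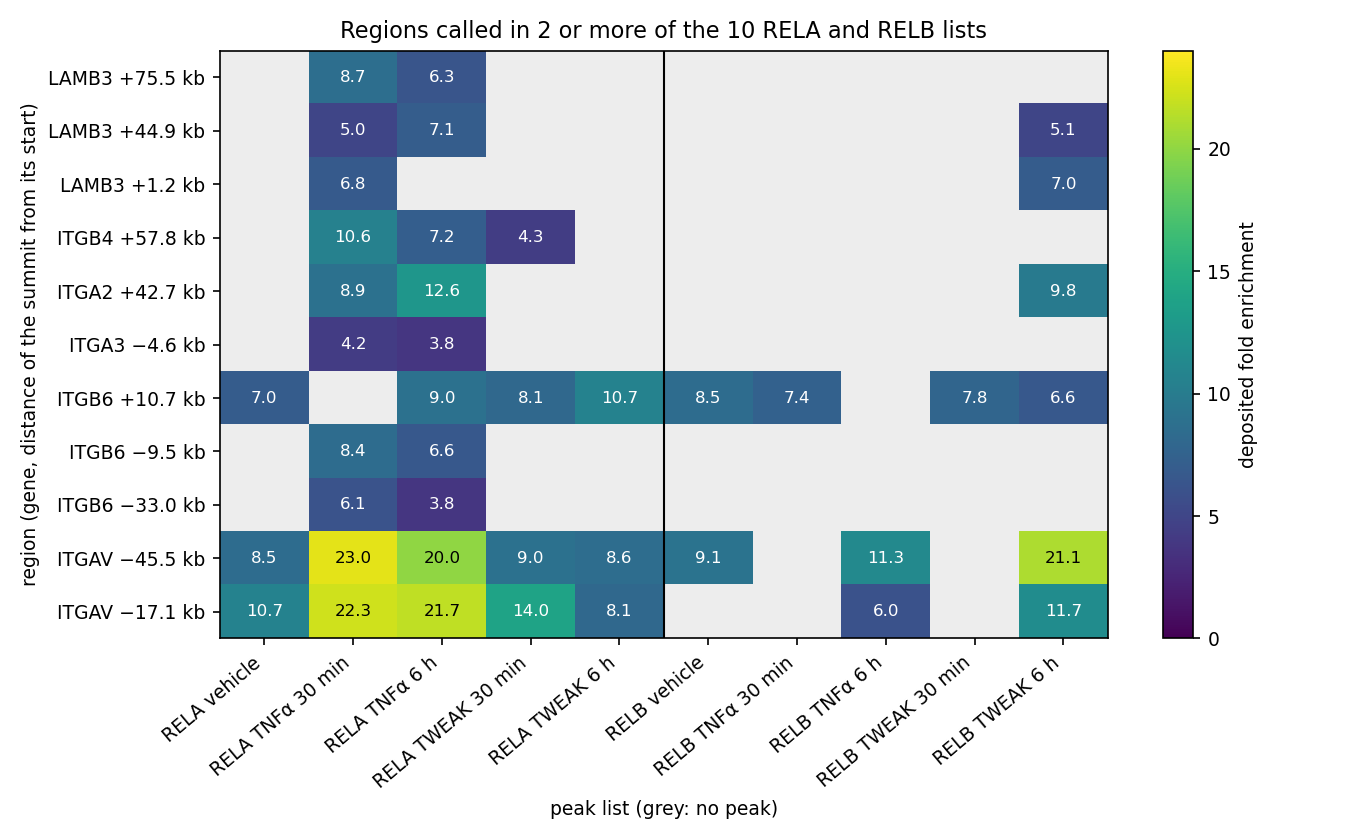
Deposited fold enrichment of the 11 sites called in 2 or more RELA or RELB lists (rows, named by gene and distance from its start; colour and printed value, grey where no peak was called). The 2 ITGAV sites reach 23.0 and 22.3 for RELA at 30 min of TNFα, and the site 10.7 kb into ITGB6 is called in 8 lists with values from 6.6 to 10.7. Fold enrichments of different lists may rest on different depths, which are unknown.

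Most RELA regions called at 30 min of TNFα were no longer called at 6 h. Of the 27, 9 overlapped a RELA region at 6 h of TNFα, 33.3% (16.5 to 54.0%), against 45.2% of the whole list. These 9 were 7 regions missing in vehicle and the 2 upstream ITGAV sites, which were called in vehicle. All 18 others were missing in vehicle. The median fold enrichment at 30 min was 8.67 for these 9 and 4.84 for the other 18. Over the whole list the medians were 7.36 and 5.39, so in both the regions missing at 6 h had the lower median. All 27 together had a median of 5.18, against 5.93 over the whole list. RELB at 6 h of TWEAK overlapped 5 of the 27 (LAMB3 with 2, ITGAV with 2, ITGA2 with 1), 18.5% (6.30 to 38.1%), against 27.3%. RELA at 30 min of TWEAK overlapped 3 of the 27, against 20.1% over the whole list. In the RELB list for 6 h of TWEAK, 5 of the 8 lay on RELA regions of 30 min of TNFα, against 76.1% over that RELB list, and 5 of 8 lay on FOSL1, against 78.8%. The 8 included the ITGB6 intron 4 site, which lay on neither, and 7 remained without that site.

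FOSL1 and acetylation were in place in vehicle at most of these regions. FOSL1 overlapped 19 of the 27 RELA regions at 30 min of TNFα, 70.4% (49.8 to 86.2%), against 58.0% of the whole list. H3K27ac lay within 500 bp of the summit at 20 of the 27 in vehicle, 74.1% (53.7 to 88.9%), against 60.1%. At 30 min of TNFα it was 21 of 27, against 71.2%, at 6 h of TNFα 22, against 67.1%, and with TWEAK 20 at 30 min, against 63.3%, and 21 at 6 h, against 60.5%. Between vehicle and 30 min of TNFα, 1 region gained H3K27ac, the LAMB3 site 39.4 kb upstream, and 0 lost it, while 13.1% of the whole list gained it and 2.03% lost it. The count depended on how a peak was assigned: when the H3K27ac peak had to overlap the RELA region, 4 of the 27 gained it and 1 lost it. The same 20 regions had H3K27ac in all 5 lists (52.9% over the whole list) and 5 had it in none (22.5%). Acetylation and FOSL1 went together: 18 of the 19 regions with FOSL1 had H3K27ac in vehicle, and 2 of the 8 without FOSL1. Over the whole list these shares were 78.9% and 34.1%. Of the 5 regions without H3K27ac in any list, 3 belonged to LAMB3 and 2 to ITGB6.

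**Figure D4:**
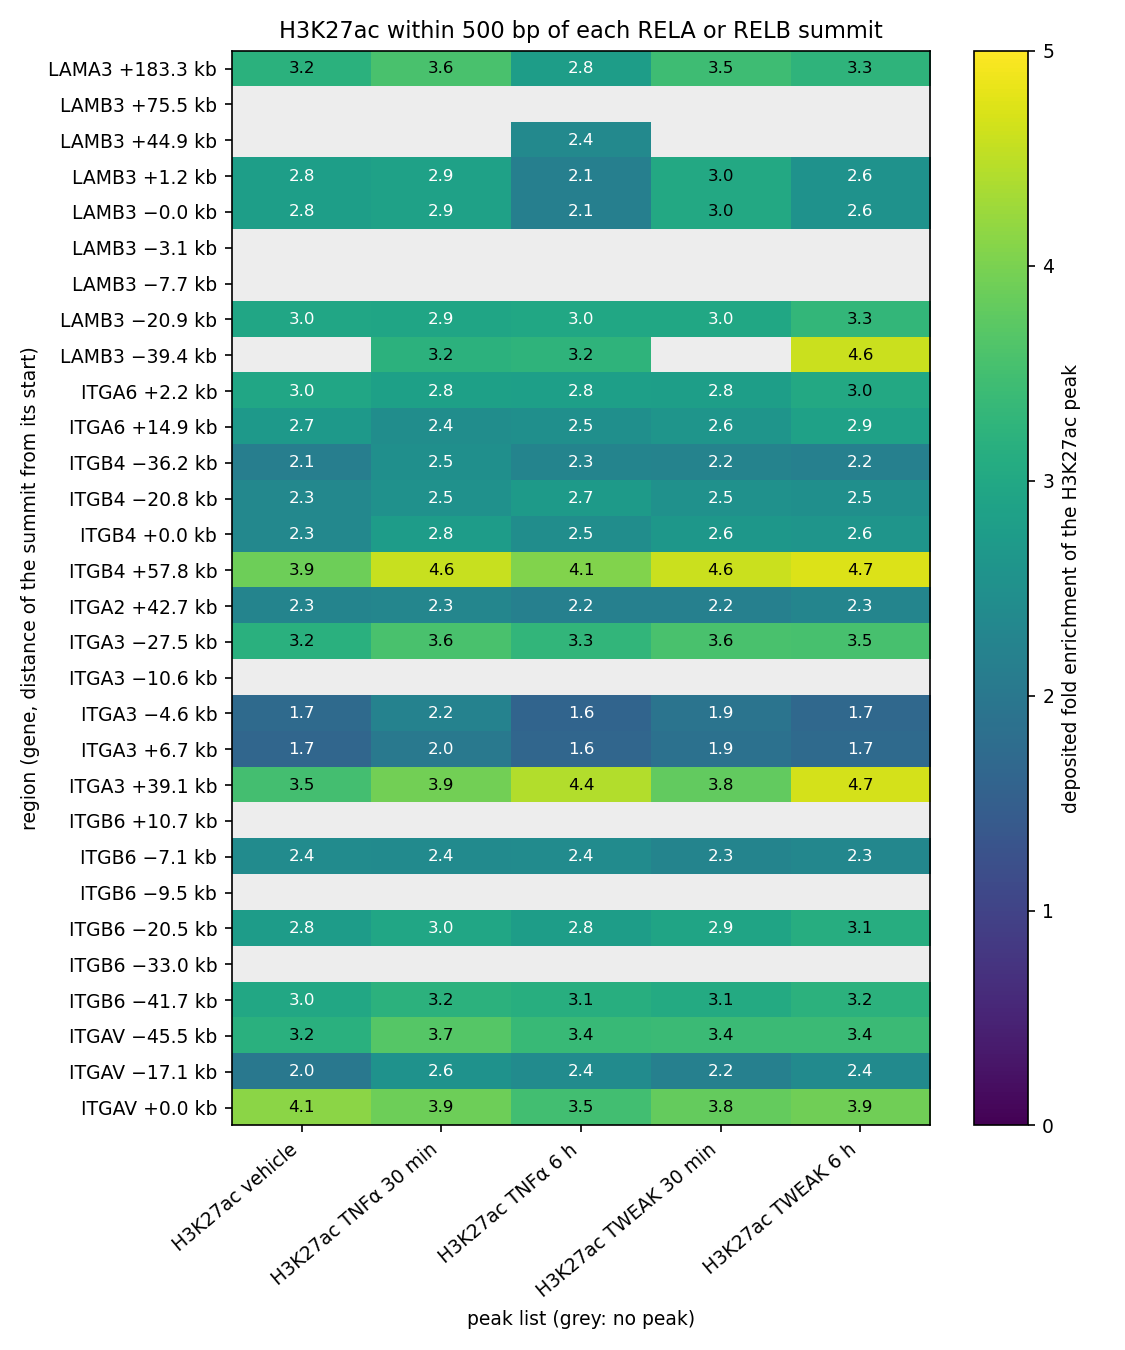
Deposited fold enrichment of the H3K27ac peak within 500 bp of each of the 30 RELA or RELB summits (rows) in the 5 H3K27ac lists (columns), with grey where no peak was called. At 21 sites a peak is called in all 5 lists, at 7 in none and at 2, both in the LAMB3 window, in some.

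The AP-1 consensus occurred in the 200 bp around the summit of 8 of the 27 RELA regions, 29.6% (13.8 to 50.2%), against 11.1% of the whole list. The NF-κB consensus occurred in 9, 33.3% (16.5 to 54.0%), against 34.8%, and 2 regions, both at LAMB3, held both. At 12 of the 27 neither was found. Of the 88 FOSL1 regions in the windows 47.7% held the AP-1 consensus, against 38.2% of all FOSL1 regions. A RELA or RELB region of any list overlapped 20 of the 88, 22.7%, against 14.9% of all, and RELA at 30 min of TNFα overlapped 19 of them, against 11.0%. The number of FOSL1 regions ranged only from 9 at ITGAV to 13 at ITGA3, although LAMA3, ITGA2 and ITGA6 each had 1 that met RELA or RELB, and LAMB3, ITGB4 and ITGA3 had 4. Acetylation covered 79.5% of the 88 in vehicle (67.3% of all FOSL1 regions), 76.1% and 83.0% at 30 min and 6 h of TNFα (59.1% and 67.6%), and 76.1% and 80.7% at 30 min and 6 h of TWEAK (60.5% and 63.7%).

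At the gene starts, H3K27ac was called within 500 bp at 8 of 8 genes in vehicle, against 57.4% of all protein-coding genes, and at 7 of 8, all but LAMA3, at 30 min of TNFα, against 55.6%. FOSL1 lay within 500 bp of 6 of the 8 starts, against 37.0%, and RELA at 30 min of TNFα at 3 (LAMB3, ITGB4 and ITGAV), against 6.56%. Only the annotated start of each gene was counted. The start of the shorter LAMA3 transcript, 288 bp from the LAMA3 site with RELA, FOSL1 and H3K27ac, was therefore left out. Summed over the windows, H3K27ac covered 96.9 kb in vehicle, 84.9 and 98.0 kb at 30 min and 6 h of TNFα, and 87.3 and 85.8 kb at 30 min and 6 h of TWEAK. The number of peaks behind these lengths was 98, 94, 109, 93 and 103. Covered length in the windows was lower at 30 min of TNFα than in vehicle, and so was that of the whole list (45.1 Mb against 55.5 Mb). As a share, H3K27ac covered 6.24% of the windows in vehicle and 5.475% at 30 min of TNFα, against 1.80% and 1.46% of the genome.

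Other laminin, integrin and hemidesmosome genes were examined alongside: LAMA4, LAMA5, LAMB1, LAMB2, LAMC1, ITGA1, ITGA5, ITGB1, ITGB5, ITGB8, COL17A1, COL7A1, PLEC, DST and CD151. A RELA region at 30 min of TNFα that was missing in vehicle lay at 12 of these 15 genes, beside 8 of the 8 and 46.9% of all genes. A RELB region at 6 h of TWEAK missing in vehicle lay at 7 of the 15, beside 4 of the 8 and 11.8% of all genes. Both were thus frequent at these related genes too, and not particular to the 8. LAMB2 and ITGA1 had no RELA or RELB region in any list, while PLEC, which links α6β4 to keratin filaments, had 9 RELA regions at 30 min of TNFα. As a check of the cell type, H3K27ac in vehicle marked the starts of 6 of 6 epithelial genes (KRT8, KRT18, KRT19, EPCAM, CDH1 and KRT7) and of 2 of 8 genes of other cell types, CD68 and VWF, while PTPRC, CD3E, PECAM1, COL1A1, COL1A2 and DCN had none.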

How the data were processed

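The series measured RELA, RELB, H3K27ac and FOSL1 binding by ChIP-seq in 48 samples, placed in 16 groups by their labels. The authors aligned reads to hg38 with Bowtie2 2.5.0 and called peaks with MACS2 (version not given in the sources used here) against input, at a stated cutoff of 0.05, as 11 narrow and 5 broad lists, 1 per group. For each peak the authors deposited a fold enrichment, the ratio of ChIP to input, which in broad lists is a mean over the peak. The deposited −log10 q was used in 1 alternative, and the authors' score and −log10 p columns were not used. No blacklist is named, and how reads with several matches were treated is not given in the sources used here. Depth per sample is unknown, so no interval covers it.

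Only peaks of chromosomes 1 to 22, X and Y entered. Overlaps needed at least 1 bp, H3K27ac counted within 500 bp of a summit, and "missing in vehicle" means no overlap with the vehicle list of the same antibody. Overlapping RELA and RELB peaks were joined into sites and named by the gene's annotated start. Shares carry exact (Clopper-Pearson) 95% intervals. Motifs were counted in the 200 bp around summits. Scripts in Python 3.11.15 (pandas 2.3.3, numpy 2.4.6, pysam 0.24.0, scipy 1.17.1) were tested on simulated data and against bedtools 2.31.1. Regions named were, for each gene, the strongest treated region, the one nearest the start and every region of both factors, and the remaining sites were added after their values were seen. The count of repeated 32-base words and the results without the ITGB6 intron 4 site were also added after the data were seen. The genes and lists were chosen with earlier results of these data known. The sequence of the ITGB6 intron 4 site is not reported here.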

Additional observations from a re-analysis of the deposited data

How the results depend on the processing

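Of 54 recomputed results, 45 were classed as unchanged and 9 as moved. Shares classed as unchanged could still shift. H3K27ac in vehicle went from 74.1% to 55.6% of RELA regions at 30 min of TNFα when its peak had to overlap the region. At a fold enrichment of at least 5, the share also called at 6 h of TNFα went from 33.3% to 43.75%. The share with RELB at 6 h of TWEAK then went from 18.5% to 31.25%, and that on FOSL1 from 70.4% to 62.5%. With 10 kb in place of 50 kb on either side, RELA regions missing in vehicle at 30 min of TNFα went from 25 to 16, RELB regions missing in vehicle at 6 h of TWEAK from 6 to 3, and regions gaining H3K27ac from 1 to 0. A fold enrichment of at least 5 left 14 such RELA regions, at 5 of the 8 genes. Regions gaining H3K27ac at 30 min of TNFα numbered 2 with 100 kb on either side, 2 at a −log10 q of at least 3, and 4 when the H3K27ac peak had to overlap the region, under which 1 lost it. Requiring 50% overlap moved none of the results recomputed. Leaving out tandem repeats could move none, since they held 0 of the 30 sites. The ITGB6 intron 4 site, called in both vehicle lists and missing at 30 min of TNFα for RELA, bears on the numbers of regions per list given with and without it, and not on these results. The reason for each move was not tested. No paired analysis was possible because a single list was deposited for the numbered samples of each group. For the same reason no sample could be left out, and with depth unknown a missing peak is not an absent factor.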
